A study of Mus musculus with 8 samples.

Results

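The genes described here are 10 cytosolic sensors of DNA and RNA, their adaptors and regulators, among 26667 genes in the count table. They were taken by gene symbol, by a rule that does not use measured values. The list was chosen with earlier results of these data known. Aim2 and Zbp1 bind DNA or left-handed nucleic acid, Ddx58 (RIG-I), Ifih1 (MDA5), Dhx58 (LGP2) and Eif2ak2 (PKR) bind double-stranded RNA, Tmem173 (STING) and Mavs are the adaptors of the DNA and RNA arms, and Trex1 and Adar remove or edit the cell's own nucleic acids. The libraries hold poly(A) RNA of macrophages grown from the bone marrow of C57BL/6 mice. Marrow cells were grown in medium with 10% serum and 30 ng/ml of the growth factor M-CSF and taken on day 8 to 10. The 2 groups were wild type (WT, 4 libraries) and Dnmt3a KO (4 libraries), in which the gene of a de novo DNA methyltransferase is deleted. The sources used here do not give the kind of deletion, the age of the mice or the number of mice behind each genotype, so a p-value reflects only how far these libraries scatter. The libraries carry the numbers 1 to 4 (WT) and 9 to 12 (KO), so their order and the genotype cannot be told apart.

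In a resting cell these sensors are present at low levels and are held back by the lack of foreign or misplaced nucleic acid. Aim2, Zbp1 and Eif2ak2 have other outputs, given below. Once bound to their ligand, Ddx58 and Ifih1 signal through MAVS, while other sensors of DNA signal through STING. Both adaptors lead to the kinase TBK1 and to the factors IRF3 and IRF7, which switch on type I interferon genes. Secreted interferon then acts through its receptor on many genes, most of the sensors among them, so that sensor transcripts are themselves interferon-inducible. Of the 10 genes, 7 were classed from such background knowledge as interferon-inducible (Ddx58, Ifih1, Dhx58, Eif2ak2, Zbp1, Aim2 and Trex1) and 2 as constitutive (Mavs and Tmem173, the latter being weakly inducible). Adar has both an inducible and a constitutive transcript, which a count per gene does not separate. The labels name no interferon treatment, so the classes were not measured here.

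Library totals ran from 12614006 to 28502631 counts. Dnmt3a itself was at 150 to 170 CPM (read counts scaled to a library of common size) in WT libraries. In KO libraries it was at 29.1 to 37.6 CPM, and the edgeR quasi-likelihood test gave -2.22 ± 0.11 (SE) in log2 and an adjusted p of 1.08e-06. WT replicate 1 stood apart, with a median correlation over genes of 0.959 to the other libraries, against 0.981 to 0.985 for the rest. All 8 macrophage markers were detected in all libraries, from Lyz2 at 5236 to 9045 CPM and Csf1r, the M-CSF receptor gene, at 1855 to 2392 CPM down to Mertk at 3.91 to 9.25 CPM. Of 12507 genes tested, 201 (1.61%) differed between genotypes at an adjusted p under 0.05, 152 higher in KO (1.22%) and 49 lower (0.392%).

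All 10 genes passed the filter on low counts, and 0 of 10 passed the edgeR quasi-likelihood test at an adjusted p under 0.05. At an unadjusted p under 0.05 there were 7, 6 of them higher and 1 lower in KO, against 12.7% of all tested genes (6.82% higher and 5.84% lower). In 0 of the 10 were all KO libraries above all WT libraries, which held for 5.13% of tested genes. All 7 inducible genes had a positive log2 fold change, with a median of 0.68 and a range from 0.24 to 0.84, and both constitutive genes had a negative one, with a median of -0.21. The median over all tested genes was -0.02, and 46.9% of them had a positive log2 fold change. The call depended on the tool and on single libraries. With DESeq2, 3 of the 10 were called, namely Zbp1, Ifih1 and Dhx58 (3.79% of all genes with that tool), and the same 3 have an adjusted p under 0.05 in the authors' deposited table, where 3.15% of genes do. With limma-voom 0 were called (1.51% of all genes). With no filter on low counts there were 4, the same 3 and Ddx58 (1.82% of all genes). Without WT replicate 1 there were 2, Ifih1 and Trex1 (3.82% of all genes), and without KO replicate 3 there was 1, Dhx58 (1.14%).

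**Figure D1:**
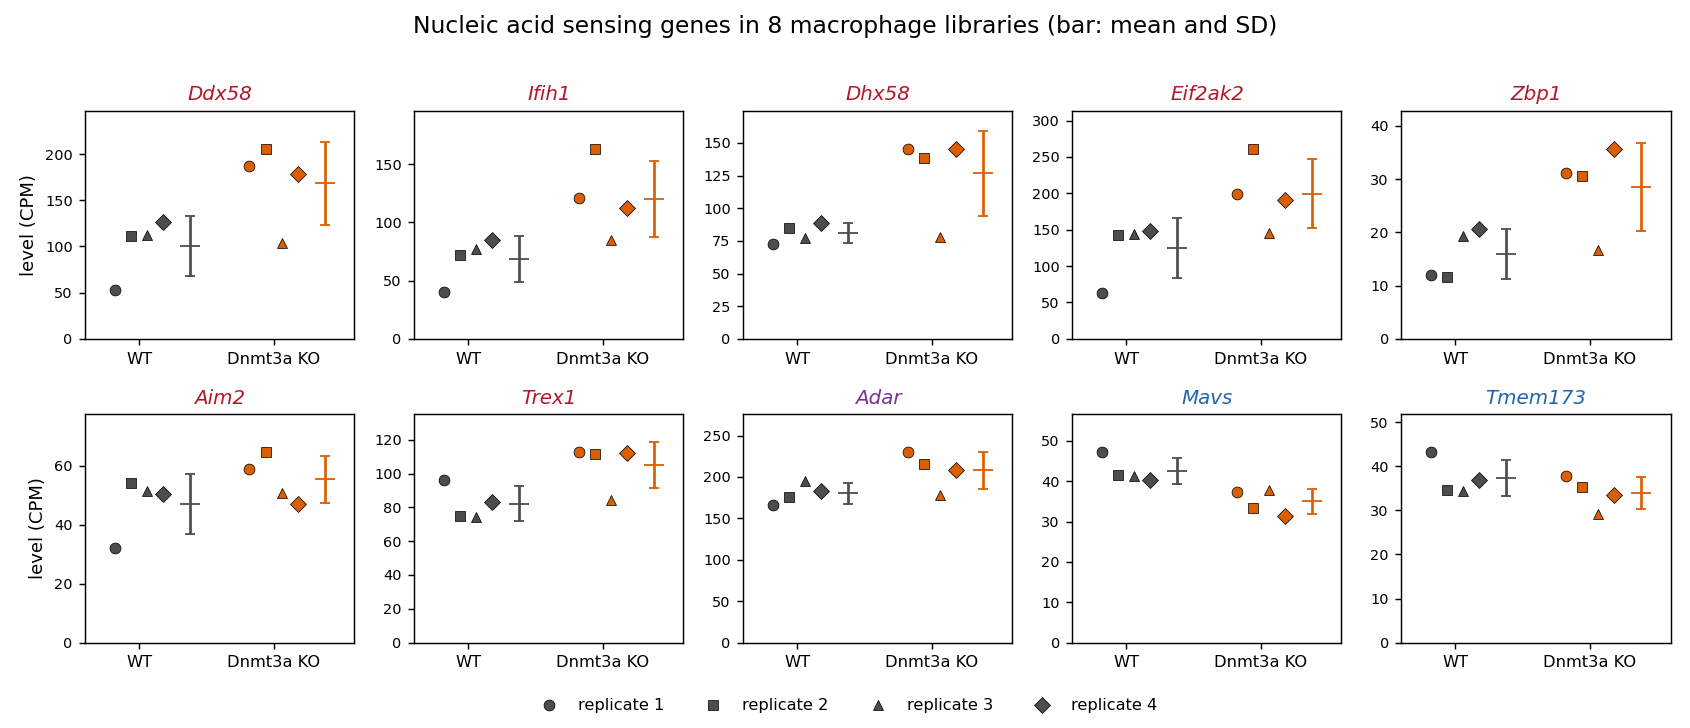
Level in CPM (vertical axis, from 0) of each of the 10 genes in the 4 WT and 4 Dnmt3a KO libraries. Points are libraries, with the replicate given by the symbol, and bars show the mean and SD. Gene names are red for interferon-inducible, purple for Adar and blue for constitutive. KO replicate 3 lies near the WT libraries in most red panels, and Mavs alone has no overlap between genotypes.

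The helicases Ddx58 and Ifih1 are the main cytosolic sensors of viral RNA. Levels are given with the SD and log2 fold changes with the SE, over 4 libraries a genotype. Ddx58, which binds short RNA with a 5′ triphosphate, was at 53.3, 110.9, 112 and 126 CPM in the WT libraries, given here and below by replicate number. The KO libraries were at 187, 206, 103 and 179 CPM. Thus 3 of 4 KO libraries lay above every WT library, while KO replicate 3 lay below WT replicates 2 to 4. The mean was 101 ± 32.3 CPM (SD, n = 4) in WT and 169 ± 44.9 CPM (SD, n = 4) in KO. In log2 the fold change was 0.74 ± 0.26 (SE), with a 95% interval from 0.17 to 1.32 and an edgeR adjusted p of 0.236.

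Ifih1, which binds long double-stranded RNA, was at 40.0, 72.3, 76.9 and 84.8 CPM in the WT libraries and at 121, 163, 84.6 and 112 CPM in the KO libraries. The order of libraries was like that of Ddx58, with WT replicate 1 lowest of all 8 and KO replicate 3 just below the highest WT value. It had a log2 fold change of 0.81 ± 0.23 (SE; 95% interval 0.30 to 1.33, edgeR adjusted p 0.138). The adjusted p was 0.0238 with DESeq2 and 0.0433 without WT replicate 1, and it ranged from 0.0120 to 0.362 over 16 alternatives. Dhx58 (chr11:100694884-100704271, minus strand, GENCODE M21 on GRCm38), which lacks the signalling domains of the other 2 helicases and tunes their activity, was at 72.6, 85.0, 77.1 and 89.0 CPM in WT. In KO it was at 146, 138, 77.7 and 145 CPM. Its WT libraries were close together, and KO replicate 3 fell among them while the other 3 KO libraries were at 138 CPM or more. The log2 fold change was 0.65 ± 0.18 (SE; 95% interval 0.25 to 1.04, edgeR adjusted p 0.116). Without KO replicate 3 it was 0.82 with an adjusted p of 0.00820, in a range from 0.00820 to 0.306 over the alternatives.

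Eif2ak2 encodes PKR, a kinase that halts translation when it binds double-stranded RNA. It was at 62.5, 142, 143 and 149 CPM in WT and at 199, 261, 145 and 191 CPM in KO. WT replicate 1 was far below the other WT libraries, and KO replicate 3 lay among those. In log2 the fold change was 0.68 ± 0.25 (SE; 95% interval 0.13 to 1.24, edgeR adjusted p 0.270), and it was 0.47 without WT replicate 1. Mavs, the mitochondrial adaptor of Ddx58 and Ifih1, showed the opposite order. It was at 47.2, 41.4, 41.3 and 40.2 CPM in WT and at 37.2, 33.3, 37.9 and 31.5 CPM in KO. Every KO library was below every WT library, which held in that direction for 4.28% of tested genes. The log2 fold change of Mavs was -0.28 ± 0.11 (SE; 95% interval -0.52 to -0.04), and the edgeR adjusted p of 0.296 did not pass the threshold.

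The sequences around the start sites of these RNA arm genes are shown because 3 of them hold the core of the interferon-stimulated response element, the DNA motif bound by the factor complex that interferon activates. Windows of 250 bases before to 50 after the start came from RefSeq (GRCm38.p6, the assembly of mm10), which gave windows for 7 of the 10 genes (all but Zbp1, Dhx58 and Tmem173). The core was searched on both strands as GAAA, any 2 bases and GAAA (on the other strand TTTC, any 2 bases and TTTC), and matches are in capitals. The windows below are printed 5′ to 3′ on the strand of the gene, and their positions are chr4:40239776-40240075 (minus strand) for Ddx58, chr2:62646206-62646505 (minus strand) for Ifih1, chr17:78882523-78882822 (minus strand) for Eif2ak2 and chr2:131233813-131234112 (plus strand) for Mavs.
Ddx58: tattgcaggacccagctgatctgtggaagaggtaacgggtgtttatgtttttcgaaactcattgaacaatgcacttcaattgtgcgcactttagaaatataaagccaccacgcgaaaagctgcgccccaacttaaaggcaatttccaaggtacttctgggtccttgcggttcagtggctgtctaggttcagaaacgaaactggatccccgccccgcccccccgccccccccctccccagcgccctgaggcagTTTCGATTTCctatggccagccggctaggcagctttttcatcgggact
Ifih1: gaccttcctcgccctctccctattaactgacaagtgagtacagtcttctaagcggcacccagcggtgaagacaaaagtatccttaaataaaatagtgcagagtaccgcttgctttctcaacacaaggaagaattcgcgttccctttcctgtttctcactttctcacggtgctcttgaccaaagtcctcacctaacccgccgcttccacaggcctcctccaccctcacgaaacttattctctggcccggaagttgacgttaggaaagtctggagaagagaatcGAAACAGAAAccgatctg
Eif2ak2: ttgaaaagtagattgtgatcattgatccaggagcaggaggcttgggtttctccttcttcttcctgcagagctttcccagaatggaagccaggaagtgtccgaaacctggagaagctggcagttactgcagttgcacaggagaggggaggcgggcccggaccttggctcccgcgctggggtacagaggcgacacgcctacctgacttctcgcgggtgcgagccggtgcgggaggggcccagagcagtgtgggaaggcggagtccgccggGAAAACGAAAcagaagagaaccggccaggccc
Mavs: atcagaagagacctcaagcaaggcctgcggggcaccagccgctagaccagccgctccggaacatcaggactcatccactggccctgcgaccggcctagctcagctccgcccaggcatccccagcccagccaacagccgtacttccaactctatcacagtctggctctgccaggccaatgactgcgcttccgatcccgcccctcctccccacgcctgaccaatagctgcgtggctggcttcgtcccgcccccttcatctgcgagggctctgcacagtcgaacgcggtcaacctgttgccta

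The matches lay downstream of the annotated start base, 2 to 11 bases after it in Ddx58, 32 to 41 in Ifih1 and 18 to 27 in Eif2ak2. The core was found in 3.99% of 27025 genes with such windows, and in 3 of the 7 genes here. None of the windows of Mavs, Aim2, Trex1 or Adar held these letters, and near matches were not searched for. The gamma-activated site TTCNNNGAA, whose letters read the same on both strands, was found once 178 bases before the start of Eif2ak2 and once in the third window of Adar, against 9.55% of genes. It did not overlap a match of the first motif in these windows. A match is a run of letters and not a measured binding site.

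Of the DNA-binding genes, Zbp1 had the largest log2 fold change of the 10 and Aim2 the smallest of the 7 inducible genes. Zbp1 (chr2:173206612-173218923, minus strand, GENCODE M21 on GRCm38) senses left-handed DNA and RNA and can start necroptosis. It was at 12.01, 11.7, 19.2 and 20.6 CPM in WT and at 31.1, 30.6, 16.7 and 35.7 CPM in KO, where 3 libraries lay above all WT libraries and KO replicate 3 lay between WT replicates 2 and 3. It had a log2 fold change of 0.84 ± 0.25 (SE; 95% interval 0.29 to 1.39, edgeR adjusted p 0.152), and the adjusted p was 0.0231 to 0.379 over 16 alternatives. Aim2, which builds an inflammasome on cytosolic DNA, was at 31.9, 54.0, 51.5 and 50.2 CPM in WT and at 59.0, 64.5, 50.8 and 47.1 CPM in KO. Apart from the low WT replicate 1 the genotypes overlapped widely. The log2 fold change of Aim2 was 0.24 ± 0.17 (SE; 95% interval -0.13 to 0.61, edgeR adjusted p 0.610) and it was 0.10 without WT replicate 1.

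Aim2 belongs to the PYHIN family, whose genes lie side by side on mouse chromosome 1. The other 8 family members on the list of pathway genes lie with Aim2 between 173349547 and 174031755 in GRCm38.p6, and several of them sense DNA or regulate interferon genes. Of these 8, 0 passed the edgeR test and 7 had an unadjusted p under 0.05, against 12.7% of all tested genes. All 8 had a positive log2 fold change, from 0.54 to 1.13, against 46.9% of all tested genes. The highest was that of Ifi204, a DNA sensor in mouse macrophages, at 44.6, 107.7, 118 and 130 CPM in WT and 202, 288, 134 and 251 CPM in KO, with all KO libraries above all WT libraries. Its edgeR adjusted p was 0.106. Ifi203 was at 130 ± 44.7 and 232 ± 53.9 CPM (SD, n = 4 each; edgeR adjusted p 0.161). Ifi207, listed under an older symbol, was at 259 ± 76.5 and 395 ± 67.3 CPM (edgeR adjusted p 0.234). Ifi203 and Ifi207 also had no overlap between genotypes. All KO libraries lay above all WT libraries in 5.13% of tested genes. These genes are near-identical in parts, so reads can be split between copies and the single values are uncertain. Whether Aim2 differed from its neighbours was not tested.

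Tmem173 encodes STING, the adaptor that cyclic GMP-AMP activates after DNA has been sensed. It was at 43.2, 34.6, 34.5 and 36.9 CPM in WT and at 37.9, 35.3, 29.1 and 33.4 CPM in KO, and the genotypes overlapped. The log2 fold change of -0.14 had a 95% interval from -0.41 to 0.13, and the edgeR adjusted p was 0.698. Mavs and Tmem173 were thus the only 2 of the 10 with a negative log2 fold change, in the fit described and in all 16 alternatives.

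Trex1 and Adar dispose of or edit self nucleic acid, and their log2 fold changes were positive and below those of the RNA sensors. Trex1 (chr9:109057933-109059734, minus strand, GENCODE M21 on GRCm38), the main exonuclease for cytosolic DNA, was at 96.5, 74.6, 74.4 and 83.0 CPM in WT and at 113, 111, 84.3 and 112 CPM in KO. In contrast to the RNA sensors its highest WT value was in WT replicate 1, and KO replicate 3 was again the lowest KO library. The log2 fold change was 0.36 ± 0.13 (SE; 95% interval 0.08 to 0.63, edgeR adjusted p 0.241). Without WT replicate 1 the adjusted p was 0.0270, in a range from 0.0270 to 0.491. In GENCODE release M21 all 1147 exon bases of Trex1 are also annotated as exons of Atrip on the same strand, so how the authors' counting divided reads between them is uncertain. Adar (chr3:89715022-89753446, plus strand), which edits adenosine in double-stranded RNA and so keeps Ifih1 from binding self RNA, was at 166, 176, 195 and 183 CPM in WT and 230, 216, 178 and 208 CPM in KO. Its log2 fold change was 0.21 ± 0.10 (SE; 95% interval -0.02 to 0.43, edgeR adjusted p 0.455). Of its exon bases 16.8% overlap exons of Chrnb2 on the other strand, and the kit does not mark strand.

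**Figure D2:**
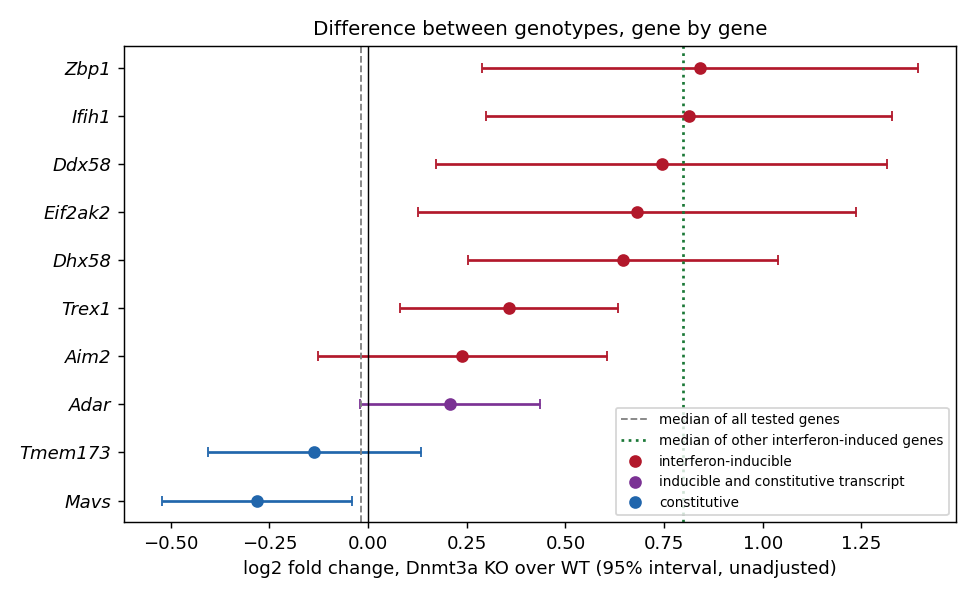
Log2 fold change of Dnmt3a KO over WT (horizontal axis) for each of the 10 genes, with unadjusted 95% intervals from the edgeR fit. Colours give the class. Inducible genes lie at 0.24 to 0.84, Adar at 0.21, and Tmem173 and Mavs at -0.14 and -0.28.

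Levels of different genes were set side by side as CPM per kilobase of annotated exon. In WT, Trex1 was highest at 71.6 ± 9.04 CPM per kilobase (SD, n = 4), and its range did not overlap that of the next gene. Its exon bases are all shared with Atrip, so its level and its place are uncertain. Dhx58 (24.7 ± 2.27), Eif2ak2 (24.3 ± 8.06) and Adar (22.2 ± 1.51) followed, with overlapping ranges. Ddx58 (14.3 ± 4.59), Tmem173 (13.6 ± 1.49), Aim2 (13.4 ± 2.89) and Mavs (12.7 ± 0.94) formed a further run in which each overlapped the next. Ifih1 was at 8.39 ± 2.41 and Zbp1, the lowest, at 4.50 ± 1.33 CPM per kilobase, again with overlap between them. These runs are not separate, since ranges also overlapped across them. Eif2ak2 (12.2 to 29.1) overlapped Ddx58 (7.56 to 17.9), and Ifih1 (4.90 to 10.4) overlapped Ddx58 and Aim2 (9.11 to 15.4). In KO the order at the bottom remained Zbp1 lowest, at 8.09 ± 2.33, but Mavs (10.5 ± 0.92) and Tmem173 (12.4 ± 1.35) came below Ifih1 (14.7 ± 3.99) by their means. The ranges of Tmem173 and Ifih1 in KO overlapped, and so did those of Mavs and Ifih1.

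**Figure D3:**
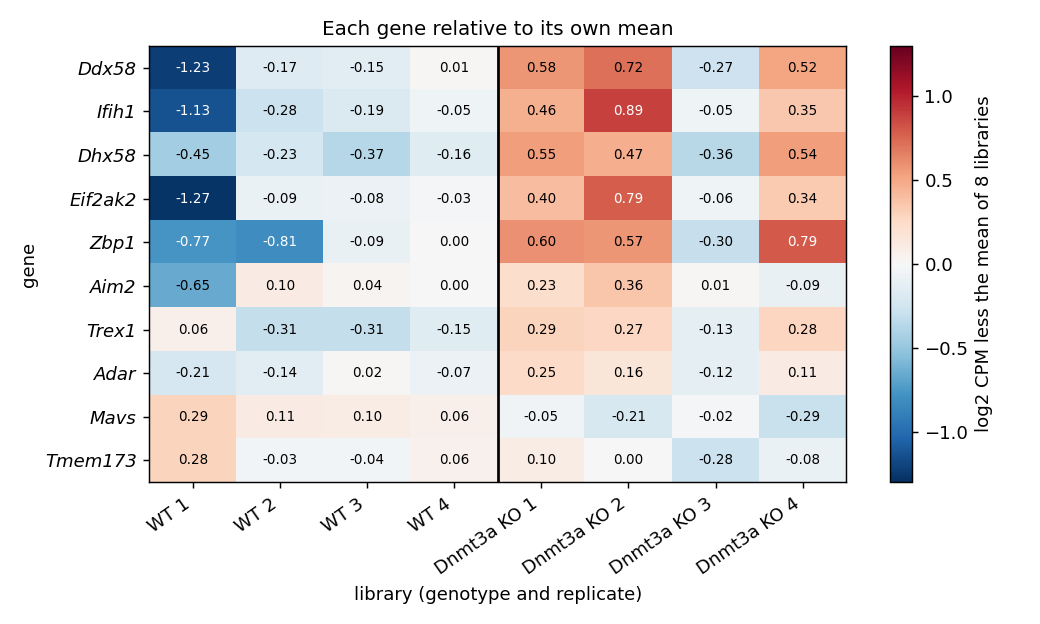
Log2 CPM (prior count 2) of each gene less its mean over the 8 libraries, with genes in rows and libraries in columns, where red is above and blue below the mean. Ddx58, Ifih1 and Eif2ak2 reach -1.23, -1.13 and -1.27 in WT replicate 1, and KO replicate 3 is near or below 0 for all 10 genes.

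Most of the inducible genes varied together between libraries of one genotype. Over the 8 libraries, centred within genotype, the Pearson r of each to the mean of the other inducible genes was 0.70 to 0.98 for 6 of the 7 and 0.08 for Trex1. It was 0.85 for Adar, 0.05 for Tmem173 and -0.76 for Mavs. These values are descriptions over libraries, and genes of one library share its depth and scaling. WT replicate 1 was the lowest WT library for 5 of the 7 inducible genes, Zbp1 and Trex1 being the exceptions, and KO replicate 3 was the lowest KO library for 6 of 7, Aim2 being the exception. The median deviation of the 7 genes from their own means on the log2 scale was -0.77, -0.23, -0.15 and -0.03 in the WT libraries. In the KO libraries it was 0.46, 0.57, -0.13 and 0.35. KO replicate 3 therefore lay below WT replicate 4. Of 34 tested interferon-induced genes outside the 10, the median deviation was -1.16, -0.29, -0.18 and -0.07 in WT and 0.46, 0.80, -0.09 and 0.57 in KO, and KO replicate 3 was the lowest KO library for 31 of the 34. Over the 8 libraries, centred within genotype, Lrp12, Rnf213, Irf9 and Ube2n were among the 5 genes most like the mean of the 7, of 9762 genes compared. The Pearson r of these 4 ran from 0.982 to 0.990 and, without WT replicate 1 and KO replicate 3, from 0.756 to 0.891 over 6 libraries, so the likeness rests in part on those 2. Irf9 encodes a transcription factor of the interferon response.

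Interferon-induced genes outside the 10 were followed as a list, which was also chosen with earlier results of these data known. Of the 34 tested, 6 were higher and 0 lower in KO at an adjusted p under 0.05, against 1.22% and 0.392% of all tested genes. A positive log2 fold change was found for 32, against 46.9% of all tested genes, and the median was 0.80. The antiviral genes Ifit1 and Ifit3 rose from 83.3 ± 35.6 to 255 ± 78.1 CPM and from 46.0 ± 14.7 to 123 ± 35.3 CPM (SD, n = 4 each; edgeR adjusted p 0.0306 and 0.0181). Both have near-identical neighbours, which makes their values uncertain. Oasl1, an inhibitor of Irf7 translation, rose 2.45-fold, the ubiquitin-like modifier gene Isg15 2.04-fold, the antiviral GTPase gene Mx2 1.90-fold and the chemokine gene Cxcl10 1.89-fold, with edgeR adjusted p from 0.0129 to 0.0387. All 6 calls were lost without WT replicate 2 and without KO replicate 1, and 20 of the list were called without WT replicate 1, where 3.82% of all genes were. The 3 with the highest level did not pass. Slfn5 was at 332 ± 154 and 643 ± 164 CPM without overlap, Parp14 at 319 ± 96.0 and 528 ± 149 CPM, and Ifitm3, which restricts virus entry, at 403 ± 61.1 and 317 ± 60.2 CPM in WT and KO.

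The wider sensing pathway was mostly without calls. Of 88 tested pathway genes that are not among the 10, 1 was higher (1.22% of all genes) and 0 lower, and the median log2 fold change was 0.09. With DESeq2 8 were called (3.79% of all genes with that tool). At an unadjusted p under 0.05, 18 were higher and 5 lower, against 6.82% and 5.84% of all tested genes. The 1 called gene was Irf7, the interferon-inducible factor that amplifies interferon production. It was at 70.4, 82.7, 89.1 and 104 CPM in WT and 177, 165, 99.3 and 191 CPM in KO. This gave 0.87 ± 0.19 (SE) as log2 fold change and 0.0468 as adjusted p in the edgeR fit. Again KO replicate 3 fell within the WT range, and the call was lost in 7 of 16 alternatives, with adjusted p up to 0.156.

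Of 15 kinases and factors that relay the signal, Irf7 was thus the only one called in this fit. At an unadjusted p under 0.05, 2 were higher (Irf7 and Azi2) and 2 lower (Ikbke and Traf3), against 6.82% and 5.84% of all tested genes. The median log2 fold change of the 15 was -0.01, with 0.16 for Tbk1, -0.15 for Irf3, 0.30 for Azi2 and -0.29 for Traf3. Irf5 was at 495 ± 49.3 and 507 ± 55.6 CPM in WT and KO, and the NF-kB subunit gene Nfkb1 at 272 ± 14.3 and 274 ± 24.3 CPM. Ikbke, a kinase related to TBK1, was at 247 ± 20.1 CPM in WT. Its KO mean was 199 ± 7.71 CPM, and the adjusted p of edgeR was 0.148. Every KO library of Ikbke was below every WT library, which held in that direction for 4.28% of tested genes. The cofactors of RNA sensing had 0 calls in 14 (0 also at an unadjusted p under 0.05), and the most abundant, Ddx3x, Trim25 (the ubiquitin ligase of RIG-I) and Riok3, had log2 fold changes of 0.15, 0.08 and 0.10. Of 6 Mavs regulators 0 were called and 0 had an unadjusted p under 0.05, with log2 fold changes of 0.25 for Tax1bp1, 0.11 for Itch and -0.01 for Pcbp2. Of 8 STING regulators, with log2 fold changes of 0.10 for Tollip, 0.05 for Stim1 and -0.08 for Rhbdf2, 0 were called. At an unadjusted p under 0.05 there was 1, against 12.7% of all tested genes. The 1 was Nlrc3, an inhibitor of STING named here after its values were seen, with a WT mean of 12.6 ± 1.14 CPM and a KO mean of 8.33 ± 1.28 CPM. Every KO library of Nlrc3 was below every WT library, against 4.28% of tested genes. Its log2 fold change of -0.59 had an edgeR adjusted p of 0.0937.

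Among 12 genes for nucleases and nucleotide control, 0 were called and 3 had an unadjusted p under 0.05, against 12.7% of all tested genes. Samhd1, which depletes the nucleotides that DNA viruses and retroviruses need, was at 317 ± 39.1 and 406 ± 61.6 CPM (edgeR adjusted p 0.272). The endosomal nuclease gene Pld4 was at 284 ± 32.7 CPM in WT. In KO it was at 210.1 ± 30.9 CPM (edgeR adjusted p 0.140), while Pld3 was at 281 and 340.0 CPM. Every KO library of Pld4 was below every WT library, against 4.28% of tested genes. In the group of inflammasome and necroptosis partners 0 of 7 were called and 2 had an unadjusted p under 0.05, against that 12.7%. Log2 fold changes were 0.47 for Casp1, 0.24 for Casp8 and 0.14 for Gsdmd. In Casp1 and Casp8 every KO library was above every WT library, which held for 5.13% of tested genes. The OAS and RNase L group degrades RNA once double-stranded RNA is sensed. Of its 7 genes 0 were called and 5 had an unadjusted p under 0.05, again against 12.7%. Oas1a, Oas3 and Oas2 had log2 fold changes of 0.47, 0.46 and 0.18, and the Oas1 copies share sequence.

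**Figure D4:**
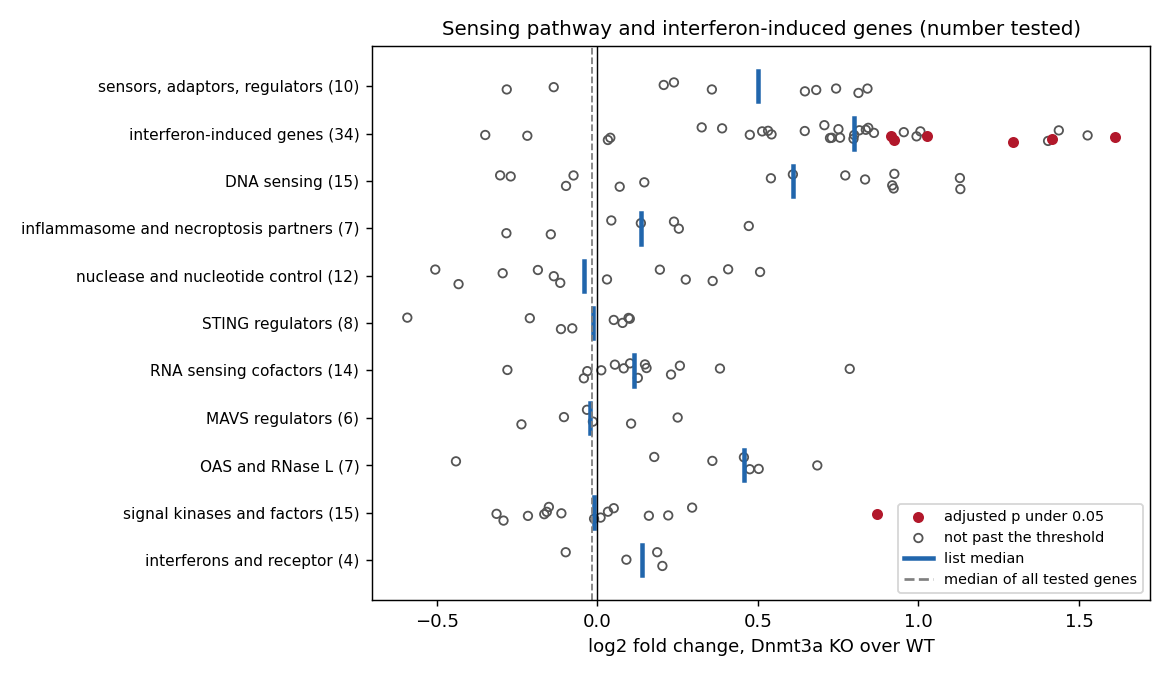
Log2 fold change of Dnmt3a KO over WT (horizontal axis) for each tested gene, by list, with the number tested in brackets. Filled red points passed the adjusted p threshold, open points did not, and blue bars are list medians. The medians are 0.50 for the 10 sensors, adaptors and regulators, 0.80 for interferon-induced genes and 0.61 for DNA sensing, against -0.02 over all genes.

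Transcripts of interferon itself were scarce. Ifnb1 had 7 counts in all WT libraries together and 12 in all KO libraries together, and the 4 interferon alpha genes looked at had 0 counts in WT and up to 3 in KO, so none was tested and a difference was not detectable at this depth. The receptor genes Ifnar1 and Ifnar2 were at 496 ± 65.0 and 151 ± 9.06 CPM in WT and at 529 ± 19.6 and 172 ± 11.3 CPM in KO, and the receptor kinase gene Jak1 was at 231 ± 28.6 and 265 ± 9.45 CPM. In Ifnar2 and Jak1 every KO library was above every WT library, which held for 5.13% of tested genes. None of these 3 passed, with edgeR adjusted p of 0.778, 0.442 and 0.473.

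Markers of other cells that a marrow culture can hold were summed per library. In such bulk libraries fewer cells of a type and less RNA per cell cannot be told apart. Of 6 neutrophil markers 5 were tested and 3 called higher, against 1.22% of all tested genes. The neutrophil markers summed to 204 to 322 CPM in WT and 527 to 655 CPM in KO, with Ly6g at 0 to 0.315 CPM. They were highest in KO replicate 3, the KO library with the lowest level of most inducible sensors. The plasmacytoid dendritic cell markers (6 genes, 0 called) summed to 335 to 432 CPM in WT and 331 to 407 CPM in KO, mostly from Bst2, Tcf4 and Irf8, which macrophages also express. Conventional dendritic cell markers summed to 17.3 to 26.2 and 18.4 to 26.2 CPM, B cell markers to 1.02 to 2.26 and 1.12 to 3.15 CPM, T and NK cell markers to 0.0596 to 0.242 and 0.150 to 0.946 CPM, and markers of fibroblasts and endothelium to 5.59 to 10.3 and 10.4 to 16.2 CPM. The part of these cells in the values above was not tested.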

How the data were processed

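Poly(A) RNA from WT and Dnmt3a KO macrophages was measured in 8 libraries. The authors deposited raw read counts per gene symbol. Trimmomatic 0.39, STAR 2.7.0a, featureCounts and build mm10 are named in the submitters' processing notes. The sources used here give neither counting settings nor annotation, and the labels' kit does not mark strand. A second table deposited by the authors holds, for each gene, the mean signal in normalised counts, the log2 fold change with its error, the test's score and its p-value before and after adjustment. Its log2 values are WT over KO, and its header has DESeq2 column names. In 25 rows the symbol had become a date (0.215% of counts), and these rows were kept.

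Genes were filtered with filterByExpr (minimum count 10), scaled by TMM and tested on genotype with the edgeR 4.0.16 quasi-likelihood test in R 4.3.3, with Benjamini-Hochberg adjustment over 12507 genes. The standard error is the log2 fold change over the square root of F. DESeq2 1.42.0 and limma-voom (limma 3.58.1) were among 16 alternatives. The tests were tested on simulated data. Positions and exon lengths came from GENCODE M21 (GRCm38), synonyms and promoter windows from RefSeq GRCm38.p6. Of 178 genes in the lists 175 were found, 5 through synonyms. Named are the 10 genes, the called genes of the lists, the 3 genes of highest level in each list group, and the 5 genes of at least 5 CPM that correlate best with the mean of the inducible genes, 1 of which is not reported here. The 10 genes and the lists were chosen with earlier results of these data known.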

Additional observations from a re-analysis of the deposited data

Results flagged for a closer look

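Within the 4 libraries of a genotype, 1 library lay far from the other 3 in 4 of 20 groups of values, where chance gives about 1 in 20. The groups share libraries and most inducible genes vary together, so they are not independent and an excess was not tested. Aim2 was at 31.9 CPM in WT replicate 1, with the next WT library at 50.2 CPM. Eif2ak2 was at 62.5 CPM in WT replicate 1, with the next at 142 CPM. Dhx58 was at 77.7 CPM in KO replicate 3, with the next KO library at 138 CPM. Trex1 was at 84.3 CPM in KO replicate 3, with the next at 111 CPM. The flags thus fall on 2 libraries, WT replicate 1 and KO replicate 3.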

How the results depend on the processing

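The log2 fold changes of the 10 genes kept their sign in all 16 alternatives. The count of the 10 genes called was 4 with no filter, 3 with DESeq2 and 0 to 2 with single libraries left out. Pathway genes called were 0 without scaling factors or with limma-voom, 7 with no filter, 8 with DESeq2 and 0 to 6 with libraries left out. Interferon-induced genes called were 21 with no filter, 14 with DESeq2 and 0 to 20 with libraries left out. Over all genes there were 399 with no filter (302 higher, 97 lower), 514 with DESeq2 (346 higher, 168 lower) and 103 to 484 with libraries left out (82 to 341 higher, 21 to 143 lower), highest without WT replicate 1 and lowest without WT replicate 2. The cause was not tested. The median log2 fold change of all genes stayed between -0.03 and 0.05.

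Replicate numbers are shared between the genotypes, and nothing in the labels says that they pair the libraries. The correlation of deviations in same-numbered pairs ran from -0.02 to 0.28. Of the 4 KO libraries 3, all but replicate 4, correlated best with the WT library of their own number. KO replicate 1 had 0.25 with WT replicate 1 and 0.04 with WT replicate 2. The margins were smaller for KO replicate 2 (0.284, and 0.269 with WT replicate 4) and KO replicate 3 (0.066, and 0.021 with WT replicate 1). Whether the numbers pair the libraries was not tested. With a replicate block 260 genes, 3 pathway genes, 10 interferon-induced genes and 0 of the 10 genes were called. With 4 libraries a group, the intervals of Aim2, Adar and Tmem173 include 0, and a smaller change in them was not detectable.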
